A study of Homo sapiens with 16 samples.

Results

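Interferon-stimulated genes were followed as a list of 55 symbols in 2 multiple myeloma cell lines and in clones of these lines that resist venetoclax, which binds and blocks BCL2, a protein that keeps cells from apoptosis. The members were the rows with these symbols in each line's count table. Of the 55, 31 were listed among the 12592 genes of the KMS12PE table and 39 among the 14560 genes of the KMS27 table, with 29 in both tables and 14 in neither. All listed members entered the tests, which covered 12279 genes in KMS12PE and 14088 in KMS27.

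KMS12PE and KMS27 are plasma cell lines with t(11;14), the translocation that places cyclin D1 under an immunoglobulin enhancer. The resistant populations were clones A, C and D of KMS12PE and clones B5, C1 and C5 of KMS27. Each grew from 1 cell after exposure to a high dose of venetoclax, and all were kept in 100 nM of the drug. They were set against the venetoclax-sensitive parental population of their line. Every population had 2 poly-A RNA libraries, 16 in all, numbered 1 and 3 in KMS12PE and 1 and 2 in KMS27. A venetoclax dose for the parental cells is not stated, and each resistant population is 1 clone, so drug exposure, selection and descent from a single cell cannot be told apart. In bulk RNA, fewer cells of a kind and less RNA per cell cannot be told apart either.

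Type I interferon binds the receptor IFNAR1-IFNAR2, whose kinases JAK1 and TYK2 phosphorylate STAT2 and other factors. STAT2 and IRF9 are parts of the complex ISGF3, which binds a DNA element called the ISRE in the promoters of interferon-stimulated genes. The products sense foreign nucleic acid, degrade or mask viral RNA, stall translation and conjugate the ubiquitin-like protein ISG15 to other proteins. Many of these genes also keep a low, cell-dependent level without added interferon.

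Counts per library summed to between 5831289 and 13674426 in KMS12PE and to between 20257318 and 52615971 in KMS27. Members held 0.187% to 0.209% of the counts in KMS12PE libraries and 0.170% to 0.270% in KMS27 libraries. All 8 plasma cell markers were listed in both lines, whereas no monocyte, fibroblast or erythroid marker was. The summed plasma cell markers of KMS27 ran from 4432 to 8958 CPM in clone libraries and from 8603 to 10203 CPM in parental libraries. Of 3 T cell markers CD3E alone was listed, in KMS27, at 0.638 to 2.97 CPM in clone libraries and 0.508 to 0.663 CPM in parental libraries. Of 3 epithelial markers EPCAM alone was listed, in KMS12PE, at 43.3 to 109 CPM in clone libraries and 102 to 106 CPM in parental libraries. The part of these genes in the results was not tested. The 2 libraries of clone B5 stood apart from each other (chi-square per degree of freedom 58.0, against 11.8 to 22.5 in the other KMS27 populations), and the counts over the KMS27 clones are also given without them. No label says that the 2 libraries of a population came from separate cultures, so the p-values measure only the spread between these libraries.

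Promoter sequences of the members on which the results turn are given first, with the matches to the ISRE marked. They were taken from RefSeq (GRCh38.p14) and are the 250 bases before a start taken for each gene, 5′ to 3′ on the gene's strand. A gene can have other starts, and these were not searched. The windows of ISG15, ISG20 and XAF1 lie inside the gene's span in GENCODE v29. For IFIT5 and SAMD9L the bases just after the window were not found in a GENCODE v29 transcript of the gene, so their starts are less certain. Capitals mark the ISRE core searched for, GAAA, NN (any 2 bases) and GAAA again, or TTTC, NN and TTTC on the other strand. IFIT3 (chr10:89327747-89327996, plus strand), IFIT5 (chr10:89414318-89414567, plus strand) and ISG15 (chr1:1013247-1013496, plus strand) are among the genes that were higher in KMS27 clone C5. IFIT1 (chr10:89392373-89392622, plus strand) lies between IFIT3 and IFIT5 on chromosome 10 and was listed in neither line. SAMD9 (chr7:93117980-93118229, minus strand) and SAMD9L (chr7:93148386-93148635, minus strand) are neighbours that were lower in the KMS27 clones, as was ISG20 (chr15:88638766-88639015, plus strand). GBP1 (chr1:89065209-89065458, minus strand) had no counts in KMS12PE clone D. XAF1 (chr17:6755796-6756045, plus strand) was called in opposite directions in KMS27 clones, and DTX3L (chr3:122564088-122564337, plus strand) had no counts in KMS27 clones B5 and C1.
IFIT3: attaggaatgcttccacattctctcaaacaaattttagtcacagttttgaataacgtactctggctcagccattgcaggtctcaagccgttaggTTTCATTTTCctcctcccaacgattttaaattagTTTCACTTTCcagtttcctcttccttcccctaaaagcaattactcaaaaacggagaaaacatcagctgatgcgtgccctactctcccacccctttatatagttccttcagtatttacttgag
IFIT5: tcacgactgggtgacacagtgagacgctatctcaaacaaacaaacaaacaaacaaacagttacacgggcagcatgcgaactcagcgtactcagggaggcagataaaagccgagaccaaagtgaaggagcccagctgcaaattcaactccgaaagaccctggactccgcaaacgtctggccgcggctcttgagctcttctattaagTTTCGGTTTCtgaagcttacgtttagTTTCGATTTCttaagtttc
ISG15: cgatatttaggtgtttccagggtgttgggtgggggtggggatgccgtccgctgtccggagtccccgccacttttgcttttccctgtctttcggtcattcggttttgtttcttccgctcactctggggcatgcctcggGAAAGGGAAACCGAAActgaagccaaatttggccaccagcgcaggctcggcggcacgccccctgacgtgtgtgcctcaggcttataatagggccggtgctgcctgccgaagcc
IFIT1: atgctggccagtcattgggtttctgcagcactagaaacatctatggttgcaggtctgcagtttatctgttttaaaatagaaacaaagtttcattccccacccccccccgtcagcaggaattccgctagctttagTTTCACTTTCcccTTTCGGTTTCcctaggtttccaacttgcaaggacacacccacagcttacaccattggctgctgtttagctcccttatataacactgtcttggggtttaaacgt
SAMD9: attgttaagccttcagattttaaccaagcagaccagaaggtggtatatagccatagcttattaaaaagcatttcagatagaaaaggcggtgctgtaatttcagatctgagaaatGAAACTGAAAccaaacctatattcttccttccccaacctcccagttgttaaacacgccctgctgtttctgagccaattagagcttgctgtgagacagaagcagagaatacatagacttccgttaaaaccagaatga
SAMD9L: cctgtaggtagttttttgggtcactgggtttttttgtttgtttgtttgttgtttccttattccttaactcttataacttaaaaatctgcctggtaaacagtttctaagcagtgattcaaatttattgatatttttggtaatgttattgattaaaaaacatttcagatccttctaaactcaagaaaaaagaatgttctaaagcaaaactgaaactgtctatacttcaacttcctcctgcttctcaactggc
ISG20: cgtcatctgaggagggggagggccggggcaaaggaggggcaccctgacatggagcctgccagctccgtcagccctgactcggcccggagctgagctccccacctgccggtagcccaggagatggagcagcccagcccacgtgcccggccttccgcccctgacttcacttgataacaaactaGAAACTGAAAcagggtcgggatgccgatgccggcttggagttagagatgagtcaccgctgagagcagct
GBP1: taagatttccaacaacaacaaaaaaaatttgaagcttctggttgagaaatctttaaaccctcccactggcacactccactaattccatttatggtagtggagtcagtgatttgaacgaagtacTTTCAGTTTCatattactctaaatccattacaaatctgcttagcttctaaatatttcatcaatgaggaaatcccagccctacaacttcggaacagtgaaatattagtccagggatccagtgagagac
XAF1: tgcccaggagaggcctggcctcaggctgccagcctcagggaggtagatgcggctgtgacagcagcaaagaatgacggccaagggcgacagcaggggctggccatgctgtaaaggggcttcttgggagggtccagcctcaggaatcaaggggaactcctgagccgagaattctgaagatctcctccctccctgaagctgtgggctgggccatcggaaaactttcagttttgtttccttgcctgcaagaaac
DTX3L: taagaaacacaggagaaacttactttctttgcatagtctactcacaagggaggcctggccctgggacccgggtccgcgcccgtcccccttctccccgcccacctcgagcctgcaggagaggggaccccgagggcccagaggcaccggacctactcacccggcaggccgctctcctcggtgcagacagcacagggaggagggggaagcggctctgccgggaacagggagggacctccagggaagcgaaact

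Of the 55 members 45 had a promoter in the RefSeq table, and 22 of these (48.9%) held the ISRE core in the 250 bases, against 839 of all 27305 promoters (3.07%). IFIT3, IFIT5, ISG15 and IFIT1 each hold 2 core matches, and SAMD9, ISG20 and GBP1 hold 1 each. These letters were not found in the windows of SAMD9L, XAF1 and DTX3L. The windows shown hold the core more often than those of all matched members. The core was in 6 of the 12 matched promoters of members lower in clone B5 and in 5 of the 9 of members higher in clone C5, so members called in opposite directions carried it. These matches describe the sequence and do not show binding.

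Levels are given in CPM, the usual scaling of a gene's counts to its library total, here TMM-scaled, in the order of the library numbers. Log2 fold changes are clone over parental, from edgeR's quasi-likelihood fit. Their standard error (SE) is approximate, taken as the absolute log2 fold change over the square root of the test's F statistic. A gene is called when its Benjamini-Hochberg adjusted p over all genes tested was under 0.05. Not listed in either line were IFIT1, IFIT2, MX1, IFI27, IFI44L, RSAD2, CMPK2, HERC5, HERC6, DDX60, PARP9, LGALS3BP, EPSTI1 and GBP2. They include MX1, a GTPase that traps viral nucleocapsids, and IFI27 and RSAD2, which are often used to score an interferon response. Only genes with 5 counts or more in 4 or more of a line's 8 libraries were listed, so a gene on in 1 population alone could be left out of a table. None of 10 interferon genes looked for was listed in either table.

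In KMS27 members rose in some clones and fell in others. Of 39 members, 1 was higher and 13 lower in clone B5 (10.8% and 10.2% of all genes tested), 4 higher and 9 lower in clone C1 (11.5% and 10.1% of all genes tested), and 10 higher and 5 lower in clone C5 (10.4% and 9.28% of all genes tested). The median log2 fold change of the members was -0.55 for clone B5, -0.22 for clone C1 and 0.32 for clone C5, while that of all genes lay between -0.01 and 0.00. Over the mean of the 3 clones 4 members were higher and 10 lower (13.0% and 12.7% of all genes tested), with a median of -0.22. Among the 3 clones 17 of 39 members differed (13.7% of all genes). That comparison does not use the parental level, though the parental libraries still entered the fit and its spread. Over the mean, leaving out parental replicate 1 gave 0 higher and 4 lower (4.17% and 4.80% of all genes) and leaving out parental replicate 2 gave 1 higher and 4 lower (5.09% and 5.50% of all genes). Without both libraries of clone B5, with the mean then over clones C1 and C5, there were 11 higher and 9 lower (18.5% and 19.7% of all genes). The counts of single clones moved by over 1.5 times as well, and the shares of all genes called moved with them. Without parental replicate 1 there were 0 higher and 5 lower in clone B5 (3.92% and 4.63% of all genes), 1 higher and 3 lower in clone C1 (4.08% and 3.23% of all genes), and 4 higher and 3 lower in clone C5 (4.04% and 3.99% of all genes). Without parental replicate 2 there were 0 higher and 4 lower in clone B5 (4.73% and 4.74% of all genes), 2 higher and 5 lower in clone C1 (5.04% and 5.06% of all genes), and 5 higher and 3 lower in clone C5 (4.30% and 4.19% of all genes). Leaving out clone C1 replicate 1 gave 0 higher and 4 lower in clone C1 (3.51% and 2.45% of all genes) and 2 higher and 9 lower over the mean (8.92% and 8.73% of all genes). Leaving out its replicate 2 gave 3 higher and 5 lower in clone C1 (6.33% and 4.52% of all genes) and 3 higher and 6 lower over the mean (10.2% and 9.56% of all genes). Without clone C5 replicate 1 there were 7 higher and 0 lower in clone C5 (3.96% and 3.18% of all genes), 0 higher and 8 lower in clone B5 (7.89% and 7.40% of all genes) and 4 higher and 5 lower over the mean (8.93% and 8.25% of all genes). Without its replicate 2 there were 3 higher and 0 lower in clone C5 (3.76% and 3.07% of all genes), 0 higher and 8 lower in clone B5 (7.89% and 7.35% of all genes) and 1 higher and 7 lower over the mean (8.68% and 8.10% of all genes). Clone C1 had 14 lower without clone B5 replicate 2 (17.7% of all genes). The members that differed among the clones were 27 (28.6% of all genes) without clone B5 replicate 2, 9 (4.38% of all genes) and 8 (5.99% of all genes) without replicates 1 and 2 of clone C1, and 10 (4.33% of all genes) and 5 (4.19% of all genes) without those of clone C5.

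**Figure D1:**
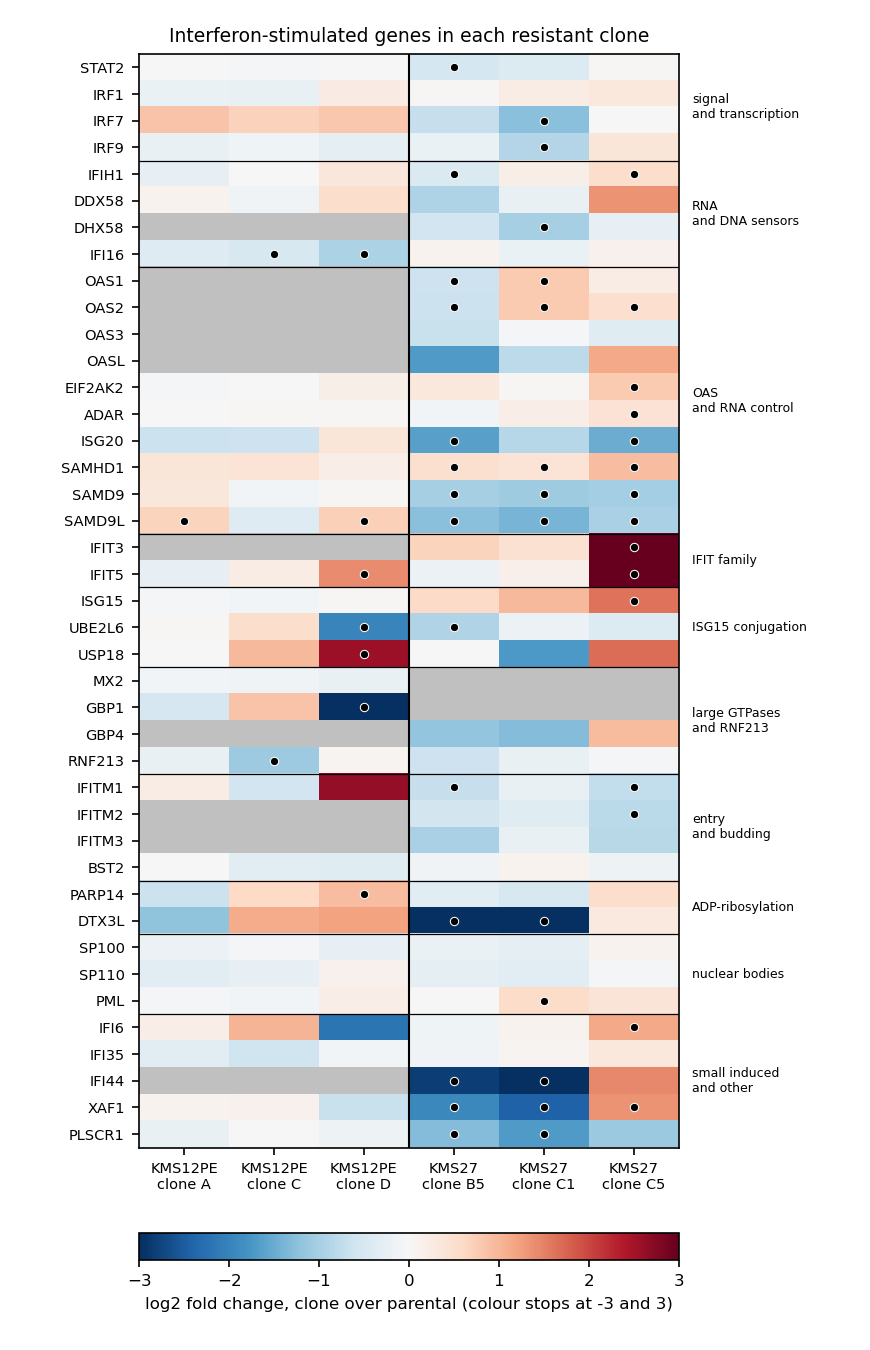
Log2 fold change of each listed member in each clone over its parental population, by role, with colours that stop at -3 and 3, grey where the gene is not listed and a black dot where the adjusted p was under 0.05. Clone C5 of KMS27 has 10 dots on cells above 0, clone B5 has 13 on cells below 0, and clones A and C of KMS12PE have 3 dots together.

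**Figure D2:**
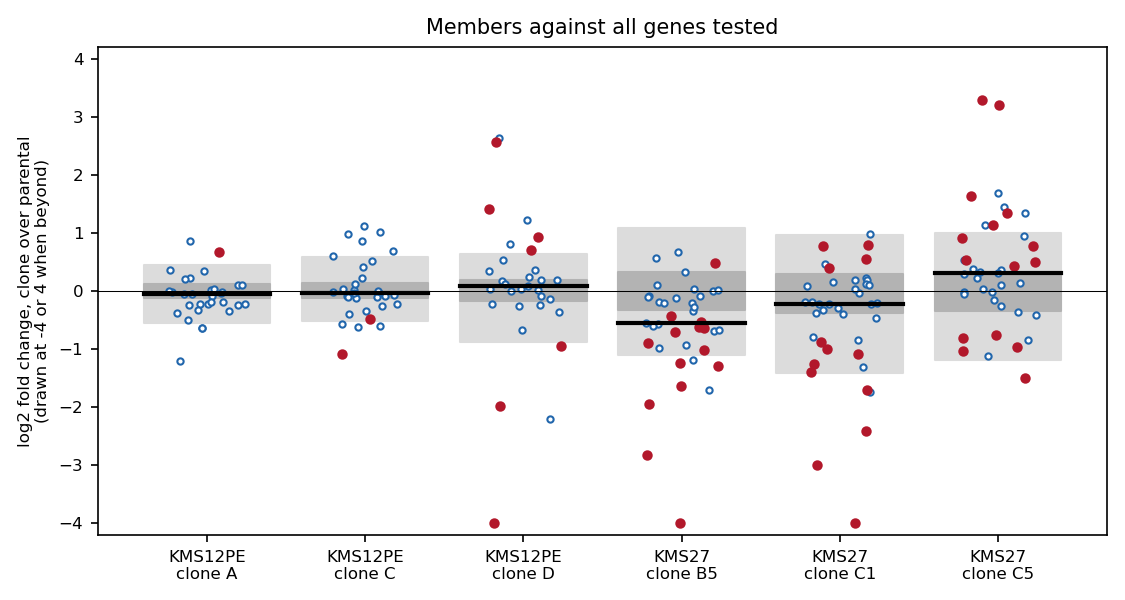
Log2 fold changes of the members in each clone (red points called, open points not called, black line their median) over those of all genes tested, with the dark band from the 25th to the 75th percentile and the light band from the 5th to the 95th. The black line lies below 0 in KMS27 clones B5 and C1 (-0.55 and -0.22) and above it in clone C5 (0.32), and points beyond -4 are drawn at -4.

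In KMS12PE fewer members passed. Of 31 members, 1 was higher and 0 lower in clone A (0.212% and 0.236% of all genes tested), 0 higher and 2 lower in clone C (0.904% and 0.880% of all genes tested), and 4 higher and 3 lower in clone D (1.86% and 3.31% of all genes tested). The median log2 fold change of the members was -0.05 in clone A, -0.03 in clone C and 0.08 in clone D. Over the mean of the 3 clones 0 members were higher and 2 lower (0.358% and 1.12% of all genes tested), and 11 of 31 differed among the clones (8.22%). At an unadjusted p under 0.05, 3 members were lower in clone A, 4 higher in clone C and 3 higher over the mean, where edgeR and DESeq2 called 0 after adjustment. The shares of all genes at that unadjusted threshold are not given here, so these 3 counts show nothing particular to the members. Same-numbered libraries of this line deviated together, and with the replicate number as a block the counts were 3 higher and 1 lower in clone A (1.85% and 1.80% of all genes), 2 higher and 4 lower in clone C (3.68% and 3.40% of all genes), 6 higher and 5 lower in clone D (7.28% and 9.16% of all genes) and 2 higher and 4 lower over the mean (2.51% and 3.99% of all genes). Leaving out 1 library of the 8 gave 0 lower over the mean without parental replicate 1 (0.328% of all genes), and 1 lower without any other (0.296% to 1.16% of all genes). In clone A it gave 0 higher without either clone A or either parental library (0.0878% to 0.105% of all genes). In clone C it gave 0 lower without its replicate 1 (0.347% of all genes) and 1 lower without its replicate 3, either clone A or either parental library (0.299% to 0.727% of all genes). In clone D it gave 2 higher without either of its own libraries or parental replicate 1 (0.792% to 1.28% of all genes), and 7 members differed among the clones without clone D replicate 3 (5.32% of all genes).

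The factors that carry the interferon signal changed in few clones. STAT2, the part of ISGF3 that activates transcription, was at 51.1 and 38.0 CPM in clone B5, 47.0 and 50.8 CPM in clone C1 and 64.0 and 68.2 CPM in clone C5, against 69.6 and 59.5 CPM in parental cells. Both libraries of clones B5 and C1 lay below the parental pair, and those of clone C5 between them. The fall in clone B5 (log2 fold change -0.53, SE 0.15, adjusted p = 0.0348) was lost without any of 7 libraries, all but replicate 1 of clone B5 (adjusted p 0.0622 to 0.224). IRF1, a factor that acts with and without interferon, had 27.6 to 36.6 CPM in all 8 KMS27 libraries and was not called in any clone. In KMS12PE none of the 4 members of this group was called in any clone.

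IRF7, which amplifies interferon-alpha production, was at 2.91 and 3.62 CPM in clone B5, 2.54 and 1.81 CPM in clone C1 and 4.68 and 5.71 CPM in clone C5, against 5.48 and 5.03 CPM in parental cells. It was lowest in clone C1 (log2 fold change -1.26, SE 0.26, adjusted p = 0.00977), a call lost without clone C1 replicate 2 or parental replicate 1 (adjusted p = 0.0658 and 0.0699). Its fall over the mean of the clones (log2 fold change -0.65, SE 0.20, adjusted p = 0.0407) was lost without any of 5 libraries, those of clone C5 and parental cells and clone C1 replicate 2 (adjusted p 0.0712 to 0.270). IRF9, the DNA-binding part of ISGF3, was at 10.7 and 11.2 CPM in clone C1, against 19.2 and 20.8 CPM in parental cells. That fall (log2 fold change -0.87, SE 0.19, adjusted p = 0.0124) was lost without either clone C1 library or either parental library (adjusted p 0.0514 to 0.107). In KMS12PE IRF7 had 1.85 to 3.48 CPM in clone libraries, against 0.703 and 2.51 CPM in parental libraries, and the ranges overlapped.

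In KMS12PE IRF9 went with the library number. Its level was 1.01, 1.76 and 0.946 CPM in replicate 1 of clones A, C and D and 0.527 CPM in replicate 1 of the parental cells. In replicate 3 it was 3.25, 2.96 and 3.12 CPM in the clones and 4.56 CPM in the parental cells. Replicate 3 was above replicate 1 in all 4 populations, with no overlap. In the fit with the replicate block the difference of replicate 3 over replicate 1 was 1.55 on the log2 scale (SE 0.31, adjusted p = 0.000938). STAT2 (0.43) and SP100 (0.27), a nuclear body protein, were also higher in replicate 3, and SAMHD1 (-0.19) and SAMD9 (-0.17) lower. These are 3 of 31 members higher and 2 lower, against 12.5% and 10.5% of all genes. In KMS27 edgeR called 0 of 39 members for the library number (6 at an unadjusted p under 0.05). The share of all KMS27 genes called for it is not given here, so that count shows nothing particular to the members.

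Among the sensors of nucleic acid, IFIH1 (MDA5), which detects long double-stranded RNA, was called in opposite directions in KMS27 clones. It was at 39.4 and 40.7 CPM in clone B5, 66.5 and 56.7 CPM in clone C1 and 72.8 and 84.3 CPM in clone C5, against 55.2 and 53.3 CPM in parental cells. Both clone B5 libraries lay below the parental pair and the 4 of clones C1 and C5 above it. The clones differed among themselves (adjusted p = 0.00417), and this held with any 1 library left out. Against parental cells the fall in clone B5 (log2 fold change -0.44, SE 0.12, adjusted p = 0.0312) was lost without either parental library (adjusted p = 0.174 and 0.114). The rise in clone C5 (log2 fold change 0.53, SE 0.12, adjusted p = 0.0140) was lost without clone C5 replicate 2 or either parental library (adjusted p 0.0772 to 0.130).

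DDX58 (RIG-I), which detects RNA with a 5′ triphosphate, was low in KMS27. It had 0.624 and 0.266 CPM in clone B5, 0.695 and 0.807 CPM in clone C1 and 1.89 and 2.55 CPM in clone C5, against 0.617 and 1.13 CPM in parental cells. It was highest in clone C5, but did not pass there (log2 fold change 1.34, SE 0.46, adjusted p = 0.0726). DHX58, which tunes the other RNA sensors, had 1.67 and 1.11 CPM in clone C1, against 3.08 and 2.57 CPM in parental cells. That fall (2.00-fold lower in the clone, adjusted p = 0.0494) was lost without any of 6 libraries, all but those of clone B5 (adjusted p 0.0864 to 0.255), and with DESeq2 (adjusted p = 0.0672).

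IFI16, a sensor of DNA, was lower in KMS12PE. It was at 69.1 and 74.4 CPM in clone A, 65.1 and 68.2 CPM in clone C and 47.9 and 48.9 CPM in clone D, against 97.7 and 88.8 CPM in parental cells. All 6 clone libraries lay below both parental libraries, and the pair of clone D lay below all others. Over the mean of the clones it fell (log2 fold change -0.60, SE 0.07, adjusted p = 0.00505), a call lost without parental replicate 1 (adjusted p = 0.104). In clone D it fell as well (log2 fold change -0.94, SE 0.09, adjusted p = 0.000628), with any 1 library left out. In clone C it fell too (log2 fold change -0.48, SE 0.09, adjusted p = 0.0342), a call lost without either library of clone A, clone C or parental cells (adjusted p 0.0723 to 0.259) and with clone C and parental cells fitted alone (adjusted p = 0.0609). In clone A the value was -0.38 (adjusted p = 0.185, and 0.00747 with the replicate block). In KMS27 IFI16 had 129.6 to 185 CPM in clone libraries, against 153 and 157 CPM in parental libraries, and no clone was called.

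The group that degrades or edits RNA or restrains translation held all 3 calls over the mean of the KMS27 clones that stood with any library left out, and each was a fall. How many of all genes called over that mean stood likewise is not given here. SAMD9 and SAMD9L are adjacent genes on chromosome 7 whose products restrain translation and cell growth, and whose mutation causes bone marrow failure. SAMD9 was at 154 and 107 CPM in clone B5, 98.8 and 151 CPM in clone C1 and 132 and 127 CPM in clone C5, against 279 and 247 CPM in parental cells. SAMD9L was at 96.4 and 62.0 CPM in clone B5, 59.7 and 83.4 CPM in clone C1 and 93.4 and 98.0 CPM in clone C5, against 197 and 178 CPM in parental cells. For either gene every clone library lay below both parental libraries. SAMD9 fell over the mean (log2 fold change -1.04, SE 0.17, adjusted p = 0.00241), and so did SAMD9L (log2 fold change -1.20, SE 0.16, adjusted p = 0.000971).

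By clone, SAMD9 changed by -1.01 for clone B5, -1.08 for clone C1 and -1.03 in clone C5, and SAMD9L by -1.24, -1.39 and -0.97 in the same clones. All 6 values were called, and those of SAMD9L in clones B5 and C1 held with any library left out. Without parental replicate 1 the call of SAMD9L in clone C5 and all 3 of SAMD9 were lost (adjusted p 0.0578 to 0.0688). Without clone C1 replicate 1 SAMD9 was lost in clone C1 (adjusted p = 0.0860), and without either clone C5 library both genes were lost in clone C5 (adjusted p 0.0865 to 0.109). The other 30 genes tested within 5 Mb had a median of -0.17 for clone B5, -0.19 for clone C1 and -0.13 in clone C5. Neither gene was called among the clones (adjusted p = 0.964 for SAMD9 and 0.339 for SAMD9L).

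ISG20, an exonuclease that degrades single-stranded RNA, was the other member that fell over the mean with any library left out. It was at 3.16 and 3.35 CPM in clone B5, 3.97 and 7.34 CPM in clone C1 and 3.50 and 3.63 CPM in clone C5, against 9.47 and 10.6 CPM in parental cells. All 6 clone libraries were below the parental pair (log2 fold change -1.32, SE 0.21, adjusted p = 0.00244 over the mean). Clone C1, whose libraries lay farthest apart, was not called by itself (log2 fold change -0.85, SE 0.27, adjusted p = 0.0563).

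SAMHD1 was higher in all 3 KMS27 clones and EIF2AK2 in clone C5. SAMHD1, which hydrolyses deoxynucleotides, was at 61.5 and 70.8 CPM in clone B5, 57.3 and 68.1 CPM in clone C1 and 88.2 and 91.3 CPM in clone C5, against 46.5 and 48.5 CPM in parental cells. Every clone library was above both parental libraries, and the pair of clone C5 was above all others. Over the mean it rose (log2 fold change 0.60, SE 0.10, adjusted p = 0.00325), a call lost without parental replicate 1 (adjusted p = 0.0544), and in clone C5 it rose (log2 fold change 0.92, SE 0.12, adjusted p = 0.00115) with any library left out. It was also called higher in clone B5 (adjusted p = 0.0235), lost without clone B5 replicate 2 or either library of clone C5 or parental cells (adjusted p 0.0513 to 0.146), and in clone C1 (adjusted p = 0.0444), lost without either library of clone C1, clone C5 or parental cells (adjusted p 0.0725 to 0.235). EIF2AK2 (PKR), the kinase that stops translation on double-stranded RNA, had 86.5 and 73.7 CPM in clone B5, 66.5 and 64.5 CPM in clone C1 and 106 and 113 CPM in clone C5, against 68.3 and 60.0 CPM in parental cells. It rose in clone C5 (log2 fold change 0.78, SE 0.12, adjusted p = 0.00234), again with any library left out, and in clone C1 its libraries lay between the parental ones. ADAR, which edits adenosine to inosine in double-stranded RNA, had 906 and 894 CPM in clone C5, against 686 and 651 CPM in parental cells. That rise (log2 fold change 0.43, SE 0.12, adjusted p = 0.0375) was lost without any of 6 libraries, all but those of clone B5 (adjusted p 0.0718 to 0.232). Within 5 Mb of ADAR the 164 other genes tested had a median of 0.25 in clone C5, and the 32 near EIF2AK2 had 0.01. The 81 near SAMHD1 had medians of 0.09 for clone B5, 0.28 for clone C1 and 0.15 in clone C5. SAMHD1 itself changed by 0.48, 0.40 and 0.92. The part of copy number was not tested. In KMS12PE SAMHD1 had 90.0 to 120.3 CPM in clone libraries, against 92.6 and 77.0 CPM in parental libraries. There it passed over the mean of the clones only with the replicate block (log2 fold change 0.33, adjusted p = 0.00214, and 0.265 without the block).

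OAS1 and OAS2 make the 2-5A signal that activates the nuclease RNase L, and in KMS27 they were called lower in clone B5 and higher in clone C1. OAS2 was at 60.8 and 59.2 CPM in clone B5, 185 and 137 CPM in clone C1 and 122 and 144 CPM in clone C5, against 92.7 and 94.8 CPM in parental cells. OAS1 was at 25.1 and 28.5 CPM in clone B5, 80.1 and 61.4 CPM in clone C1 and 43.4 and 52.7 CPM in clone C5, against 36.0 and 46.2 CPM in parental cells. For either gene clone B5 was lowest and clone C1 above the parental pair, and for OAS1 clone C5 overlapped the parental range. The clones differed for OAS2 (adjusted p = 0.00190) and OAS1 (adjusted p = 0.00467), with any 1 library left out.

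Against parental cells OAS2 changed by -0.64 in clone B5 (adjusted p = 0.0167), 0.78 in clone C1 (adjusted p = 0.00720) and 0.50 in clone C5 (adjusted p = 0.0437). The call of OAS2 in clone B5 was lost without either parental library (adjusted p = 0.0767 and 0.0816), that in clone C1 without its replicate 1 or parental replicate 1 (adjusted p = 0.0688 and 0.0540), and that in clone C5 without either of its own or either parental library (adjusted p 0.0833 to 0.267). OAS1 changed by -0.62 in clone B5 (adjusted p = 0.0377) and 0.79 in clone C1 (adjusted p = 0.0135). The call of OAS1 in clone B5 was lost without its replicate 1, either clone C5 library or parental replicate 2 (adjusted p 0.0557 to 0.224), and that in clone C1 without its replicate 1 or parental replicate 1 (adjusted p = 0.132 and 0.105). OAS1, OAS2, OAS3 and OASL were not listed in KMS12PE.

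**Figure D3:**
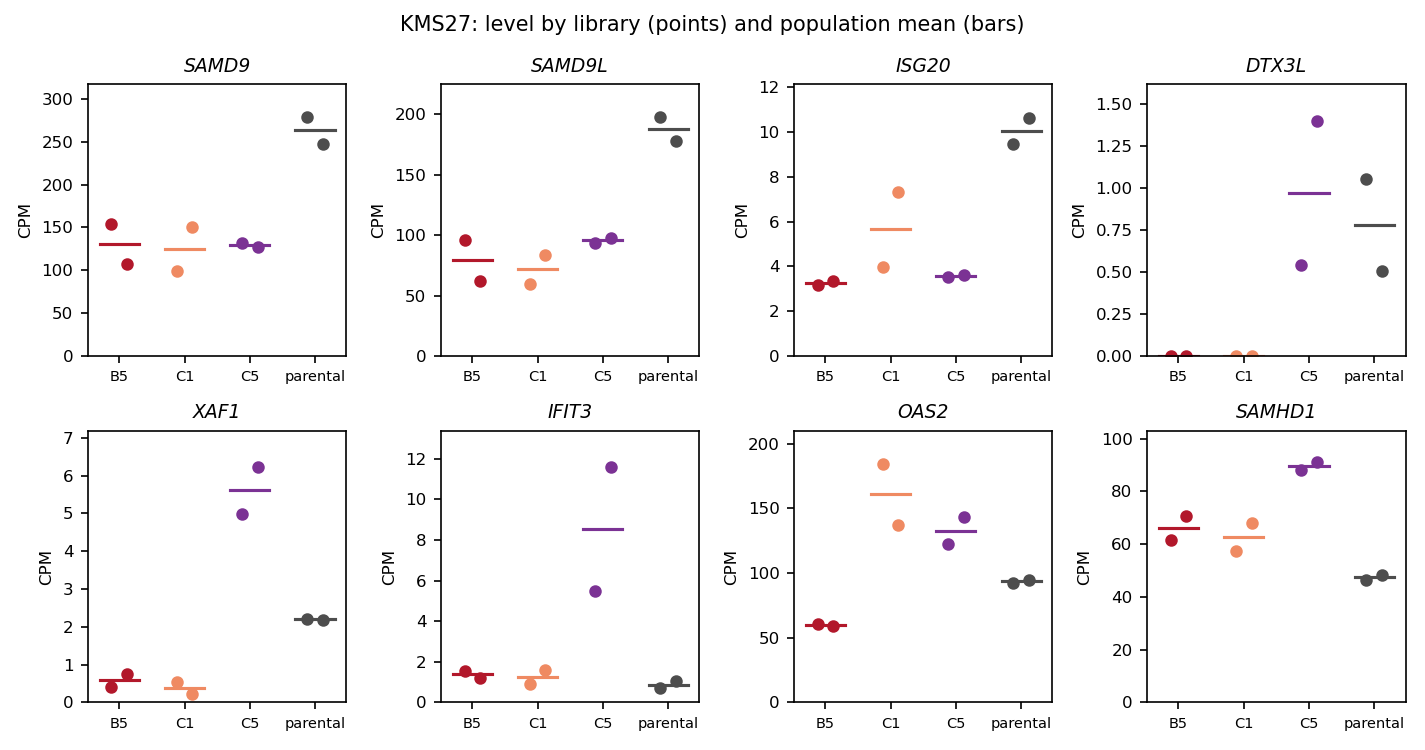
Levels of 8 members in KMS27, as CPM on the vertical axis, with a point per library and a bar at the mean of each population, clones B5, C1 and C5 left of parental. SAMD9, SAMD9L and ISG20 are below parental in all 3 clones, XAF1 and DTX3L are below parental in B5 and C1, and IFIT3 is highest in C5 (5.49 and 11.6 CPM).

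The largest called rises in the list were in the IFIT genes of KMS27 clone C5. IFIT3, which forms the RNA-binding IFIT complex, was at 1.54 and 1.22 CPM in clone B5, 0.894 and 1.57 CPM in clone C1 and 5.49 and 11.6 CPM in clone C5, against 0.689 and 1.05 CPM in parental cells. IFIT5, which binds RNA with a 5′ phosphate, was at 0.291 and 0.160 CPM in clone B5, 0.397 and 0.154 CPM in clone C1 and 1.75 and 3.15 CPM in clone C5, against 0.254 and 0.273 CPM in parental cells. Both clone C5 libraries stood above every other library, with replicate 2 the higher. The log2 fold change of IFIT3 in clone C5 was 3.29 (SE 0.46, adjusted p = 0.00151), with any library left out. That of IFIT5 was 3.19 (SE 0.57, adjusted p = 0.00505), lost without clone C5 replicate 2 (adjusted p = 0.0541). IFIT3 overlaps LIPA on the opposite strand, the use of strand in counting is not given in the sources used here, and LIPA itself changed by -0.25 in clone C5 (adjusted p = 0.223).

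ISG15, the ubiquitin-like modifier, was also highest in clone C5. It was at 2.83 and 3.62 CPM in clone B5, 5.14 and 3.26 CPM in clone C1 and 5.42 and 7.94 CPM in clone C5, against 1.78 and 2.54 CPM in parental cells. All 6 clone libraries were above both parental libraries. The rise in clone C5 (log2 fold change 1.63, SE 0.33, adjusted p = 0.00908) was lost without clone C5 replicate 2 or parental replicate 1 (adjusted p = 0.0898 and 0.0736). That over the mean (log2 fold change 1.06, SE 0.28, adjusted p = 0.0245) was lost without clone C1 replicate 1, clone C5 replicate 2 or either parental library (adjusted p 0.0553 to 0.213). USP18, which removes ISG15 and dampens the receptor, had 5 and 18 counts in clone B5, 10 and 3 counts in clone C1 and 33 and 63 counts in clone C5, against 21 and 9 counts in parental cells, and no clone was called against parental cells. In KMS12PE ISG15 had 4.99 to 7.41 CPM in clone libraries, against 7.55 and 4.40 CPM in parental libraries, with changes between -0.07 and 0.04 on the log2 scale and none called.

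XAF1, which promotes apoptosis by opposing the inhibitor XIAP, split the KMS27 clones. It was at 0.416 and 0.744 CPM in clone B5, 0.536 and 0.230 CPM in clone C1 and 4.99 and 6.22 CPM in clone C5, against 2.21 and 2.18 CPM in parental cells. Clones B5 and C1 lay below the parental pair and clone C5 above it, and the clones differed (adjusted p = 0.00128) with any library left out. The fall in clone C1 (log2 fold change -2.42, SE 0.42, adjusted p = 0.00483) also held with any library left out. That in clone B5 (log2 fold change -1.94, SE 0.43, adjusted p = 0.0137) was lost without either parental library (adjusted p = 0.0605 and 0.0527). The rise in clone C5 (log2 fold change 1.35, SE 0.37, adjusted p = 0.0315) was lost without either of its own or either parental library (adjusted p 0.111 to 0.208).

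DTX3L, a ubiquitin ligase that pairs with the ADP-ribosyltransferase PARP9, had no counts in 2 KMS27 clones. It had 0 counts in all 4 libraries of clones B5 and C1 and 16 and 35 counts in clone C5, against 29 and 13 counts in parental cells. Taking 3 counts over the population as the floor, it was at least 11.3-fold lower in clone B5 and at least 20.1-fold lower in clone C1 than in parental cells. The calls were lost without parental replicate 1 in clone B5 (adjusted p = 0.0643) and without clone C1 replicate 1 in clone C1 (adjusted p = 0.0819), while clone C5 was not called (log2 fold change 0.29, adjusted p = 0.800). The 50 other genes tested within 5 Mb had medians of -0.02 for clone B5, -0.01 for clone C1 and 0.02 in clone C5. DTX3L overlaps PARP9 on the opposite strand, and PARP9 was not listed.

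IFI44, a protein with antiviral activity, had 1 and 2 counts in clone B5, 5 and 0 counts in clone C1 and 37 and 41 counts in clone C5, against 13 and 15 counts in parental cells. In clone B5 it was 7.51-fold lower than in parental cells (95% exact interval 2.32 to 38.6, counting error only). The fit called that fall (log2 fold change -2.83, adjusted p = 0.0452). The call was lost without any of 6 libraries, all but those of clone C1. It was also lost with DESeq2 (adjusted p = 0.0576) and with clone B5 and parental cells fitted alone (adjusted p = 0.0749). Clone C1 was called lower as well (adjusted p = 0.0245). That call was lost without clone C1 replicate 2 or either library of clone C5 or parental cells. The clones differed (adjusted p = 0.00580), a call lost without clone C5 replicate 2 (adjusted p = 0.0529). PLSCR1, a phospholipid scramblase with antiviral activity, was at 0.749 and 0.798 CPM in clone B5, 0.556 and 0.615 CPM in clone C1 and 1.01 and 0.718 CPM in clone C5, against 1.89 and 1.91 CPM in parental cells. Every clone library was below the parental pair. It fell over the mean (log2 fold change -1.37, SE 0.28, adjusted p = 0.00724), a call lost without either parental library (adjusted p = 0.0761 and 0.0685).

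IFI6, which restrains cell death in infected cells, had 13.4 and 21.5 CPM in clone C5, against 7.54 and 8.39 CPM in parental cells. That rise (log2 fold change 1.13, SE 0.25, adjusted p = 0.0126) was lost without clone C5 replicate 2 or either parental library (adjusted p 0.0548 to 0.130). PML, the organiser of nuclear bodies, had 40.5 and 36.1 CPM in clone C1, against 28.1 and 24.5 CPM in parental cells. That rise (log2 fold change 0.54, SE 0.12, adjusted p = 0.0158) was lost without clone C1 replicate 1 or parental replicate 2 (adjusted p = 0.131 and 0.114).

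Some members that fell in KMS27 lie among genes that were also lower. IFITM1 and IFITM2, membrane proteins that block the entry of viruses, lie with IRF7 at the end of the short arm of chromosome 11, and UBE2L6, the enzyme that carries ISG15 to its targets, lies elsewhere on that chromosome. IFITM1 was at 15.1 and 21.5 CPM in clone B5, 24.4 and 26.2 CPM in clone C1 and 16.7 and 18.5 CPM in clone C5, against 26.5 and 32.7 CPM in parental cells. All 6 clone libraries were below the parental pair. IFITM1 fell over the mean (log2 fold change -0.56, SE 0.14, adjusted p = 0.0197), and so did IFITM2 (log2 fold change -0.58, SE 0.15, adjusted p = 0.0208). The 57 other genes tested within 5 Mb had a median of -0.55 over the mean, -0.80 for clone B5, -0.45 for clone C1 and -0.37 in clone C5. UBE2L6 was at 33.1 and 51.8 CPM in clone B5, 70.9 and 67.6 CPM in clone C1 and 57.1 and 61.0 CPM in clone C5, against 71.0 and 86.1 CPM in parental cells. Its change over the mean (log2 fold change -0.49, SE 0.15, adjusted p = 0.0391) stood beside a median of -0.44 for its 47 neighbours. The part of copy number was not tested. IFITM1, IFITM2 and IFITM3 are near-identical copies, so the split of reads among them is uncertain. The call of IFITM1 was lost without clone C1 replicate 1, clone C5 replicate 1 or parental replicate 2 (adjusted p 0.0574 to 0.202), and that of IFITM2 without clone C1 replicate 2, clone C5 replicate 1 or either parental library (adjusted p 0.0549 to 0.182). The call of UBE2L6 was lost without any of the 6 libraries of clones C1 and C5 and parental cells (adjusted p 0.0865 to 0.289).

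**Figure D4:**
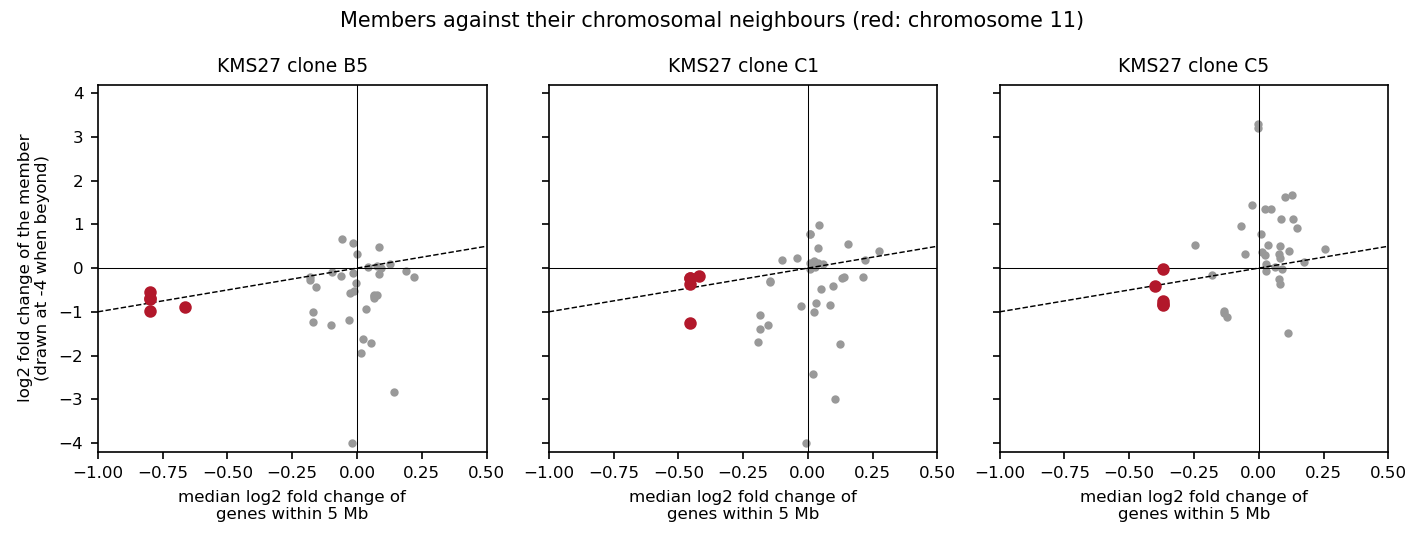
Log2 fold change of each member in a KMS27 clone (vertical) against the median log2 fold change of the other genes tested within 5 Mb (horizontal), with the dashed line where the values are equal. The members on chromosome 11 (red) have neighbours between -0.80 and -0.37, whereas the neighbours of the other members lie between -0.25 and 0.28.

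In KMS12PE clone D held most of the calls against parental cells, and 3 of its 7 stood with any library left out. It also had the most calls over all genes tested (1.86% higher and 3.31% lower). Clones A and C had at most 0.904% in either direction, so this concentration is not particular to the members. How many of all genes called in clone D stood with any library left out is not given here. GBP1, a GTPase that attacks vacuoles of intracellular microbes, was at 2.25 and 1.78 CPM in clone A, 5.91 and 4.38 CPM in clone C and 0 CPM in both libraries of clone D, against 2.63 and 2.98 CPM in parental cells. With 0 counts in clone D and 34 in parental cells, it was at least 16.5-fold lower in clone D (adjusted p = 0.00185), taking 3 counts over the population as the floor. Clone C was the highest population, and the clones differed (adjusted p = 0.000934) with any library left out. Its call over the mean of the clones (adjusted p = 0.0480) was lost without any of the 8 libraries (adjusted p 0.0620 to 0.292) and with DESeq2 (adjusted p = 0.125). The 40 other genes tested within 5 Mb had a median of -0.04 in clone D.

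UBE2L6 was at 7.87 and 7.12 CPM in clone A, 10.3 and 10.7 CPM in clone C and 2.05 and 1.69 CPM in clone D, against 9.66 and 5.03 CPM in parental cells in this line. It was lowest in clone D, with no overlap (log2 fold change -1.98, SE 0.34, adjusted p = 0.0119). That call was lost without clone D replicate 3 or parental replicate 1 (adjusted p = 0.0770 and 0.0618), whereas the difference among the clones held (adjusted p = 0.00416). IFI6 was low throughout, with 8 and 13 counts in clone A, 18 and 25 counts in clone C and 1 and 2 counts in clone D, against 4 and 6 counts in parental cells. In clone D it was 4.86-fold lower than in parental cells (95% exact interval 1.25 to 27.5, counting error only), and the fit did not call it (adjusted p = 0.115).

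IFIT5 was highest in clone D of this line. It was at 6.52 and 6.34 CPM in clone A, 9.08 and 8.61 CPM in clone C and 18.8 and 21.5 CPM in clone D, against 8.26 and 6.91 CPM in parental cells. The pair of clone D stood above all other libraries (log2 fold change 1.41, SE 0.18, adjusted p = 0.00271), and the call held with any library left out. PARP14, an ADP-ribosyltransferase, was at 6.63 and 5.49 CPM in clone A, 13.8 and 14.6 CPM in clone C and 18.8 and 17.3 CPM in clone D, against 10.0 and 8.80 CPM in parental cells. Clone A lay below the parental pair and clones C and D above it, and the difference among the clones (adjusted p = 0.00178) held with any library left out. Clone D rose (log2 fold change 0.94, SE 0.18, adjusted p = 0.0189), a call lost without either clone D or either parental library (adjusted p 0.0540 to 0.129) and with DESeq2 (adjusted p = 0.0554). Clone C passed with the replicate block (adjusted p = 0.0441) and not without it (adjusted p = 0.203).

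DTX3L was at 0.899 and 0.929 CPM in clone A, 4.58 and 4.73 CPM in clone C and 4.73 and 5.16 CPM in clone D, against 1.05 and 3.14 CPM in parental cells in KMS12PE. It differed among the clones (adjusted p = 0.0154), a call lost without either clone A library (adjusted p = 0.112 and 0.125), and clone D passed only with the replicate block (log2 fold change 1.22, adjusted p = 0.0240, and 0.165 without the block). USP18 had 23 and 38 counts in clone D, against 2 and 5 counts in parental cells. That rise (log2 fold change 2.57, SE 0.60, adjusted p = 0.0448) was lost with DESeq2 (adjusted p = 0.122) and without either library of clone C, clone D or parental cells (adjusted p 0.0713 to 0.218). IFITM1 had 27 and 58 counts in clone D, against 8 and 1 counts in parental cells, and passed in clone D only with the replicate block (log2 fold change 2.63, adjusted p = 0.00112, and 0.0529 without the block).

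SAMD9L parted the KMS12PE clones. It was at 105 and 102 CPM in clone A, 44.1 and 54.3 CPM in clone C and 105 and 107 CPM in clone D, against 63.1 and 66.5 CPM in parental cells. Clones A and D lay above the parental pair and clone C below it. The difference among the clones (adjusted p = 0.000520) held with any library left out. Clone A rose (log2 fold change 0.68, SE 0.11, adjusted p = 0.0409), a call lost without either clone A or either parental library (adjusted p 0.233 to 0.306). Clone D rose (log2 fold change 0.71, SE 0.11, adjusted p = 0.00662), a call lost without parental replicate 1 (adjusted p = 0.0622). In clone C the value was -0.39 (adjusted p = 0.163, and 0.00819 with the replicate block). SAMD9, the gene beside it, had 68.7 to 101 CPM in clone libraries, against 85.2 and 68.3 CPM in parental libraries, and passed in clone A only with the block (log2 fold change 0.35, adjusted p = 0.0108, and 0.497 without it).

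RNF213, a large ubiquitin ligase that coats intracellular bacteria, fell in KMS12PE clone C. It was at 103 and 94.2 CPM in clone A, 51.5 and 56.4 CPM in clone C and 118 and 125 CPM in clone D, against 131 and 99.9 CPM in parental cells. The pair of clone C lay below all others (log2 fold change -1.09, SE 0.13, adjusted p = 0.00419), a call lost without clone C replicate 1 (adjusted p = 0.0550). The 105 other genes tested within 5 Mb on chromosome 17 had a median of 0.06 in clone A, -0.93 in clone C and 0.04 in clone D. MX2, which blocks nuclear import of viral genomes and was listed in KMS12PE but not in KMS27, had 175 to 196 CPM in clone libraries, against 211 and 202 CPM in parental libraries. Its change in clone D (log2 fold change -0.23) passed with the replicate block (adjusted p = 0.0345) and not without it (adjusted p = 0.160). BST2 (tetherin), which holds budding virus at the membrane, changed by -0.36 in clone D (adjusted p = 0.0545, and 0.00244 with the block).

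**Figure D5:**
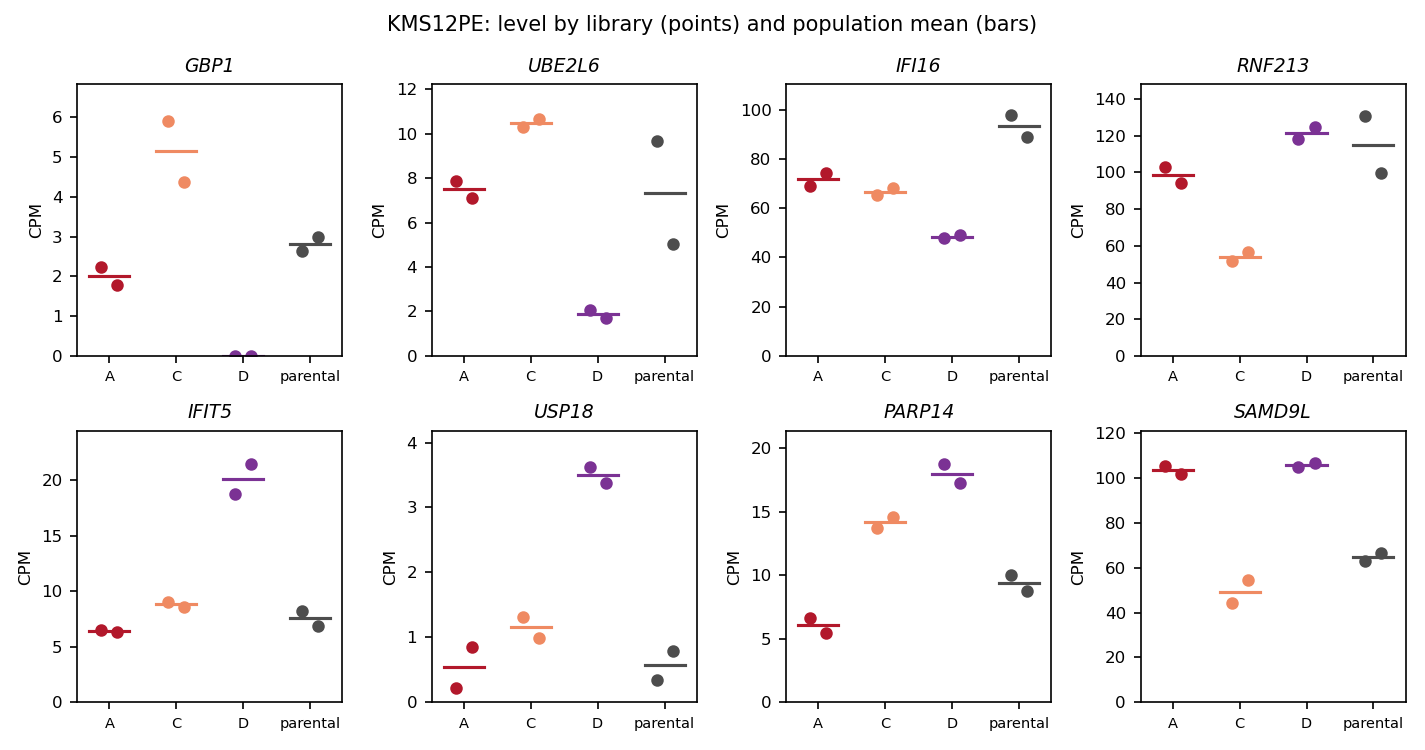
Levels of 8 members in KMS12PE, as CPM on the vertical axis, with a point per library and a bar at the mean of each population, clones A, C and D left of parental. GBP1 is at 0 CPM in clone D, RNF213 is lowest in clone C, IFIT5 and USP18 are highest in clone D, and SAMD9L is above parental in clones A and D.

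The responses of the lines were compared over the 29 members in both tables, as the mean response of the KMS12PE clones minus that of the KMS27 clones. The difference was called above 0 for 4 members and below 0 for 1 (6.45% and 7.70% of the 11623 genes tested). SAMD9L differed by 1.54 on the log2 scale (SE 0.23, adjusted p = 0.000521), with responses of 0.33 in KMS12PE and -1.20 in KMS27. Its KMS12PE response averages clones of unlike sign (0.68 in clone A, -0.39 in clone C and 0.71 in clone D). The SE and p-values of this comparison measure the spread between libraries, not that between clones. PLSCR1 differed by 1.26 (SE 0.27, adjusted p = 0.00761), with responses of -0.12 in KMS12PE and -1.37 in KMS27, and DTX3L was also called (adjusted p = 0.00429). These 3 calls held with any of the 16 libraries left out. SAMD9 differed by 1.14 (SE 0.24, adjusted p = 0.00651), lost without KMS12PE parental replicate 3 (adjusted p = 0.0575), and IFI16 by -0.61 (SE 0.14, adjusted p = 0.0119), lost without KMS12PE parental replicate 1 (adjusted p = 0.0829). Without KMS27 clone B5 replicate 2 the members called below 0 were 2 (8.93% of all genes).

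Other genes of the pathway were read over the mean of the KMS27 clones, where 13.0% of all genes tested were higher and 12.7% lower. In KMS12PE, where 0.358% of all genes were higher and 1.12% lower, edgeR called 0 of the 56 tested (7 at an unadjusted p under 0.05). The share of all genes at that unadjusted threshold is not given here. The values that follow are those of KMS27. IFNAR2, a chain of the type I receptor, averaged 113 CPM in clones and 175 CPM in parental cells (log2 fold change -0.64, SE 0.10, adjusted p = 0.00166). JAK1, a kinase of the receptor, averaged 201 CPM in clones and 156 CPM in parental cells (log2 fold change 0.37, SE 0.09, adjusted p = 0.0143), lost without either parental library (adjusted p = 0.0992 and 0.169). Of 14 genes that act in sensing, 3 were higher and 2 lower in KMS27, near the 13.0% and 12.7% of all genes. TLR7, the endosomal receptor for single-stranded RNA, averaged 336 CPM in clones and 185 CPM in parental cells (log2 fold change 0.86, SE 0.10, adjusted p = 0.000387). TMEM173 (STING), the adaptor of DNA sensing, averaged 2.31 CPM in clones and 0.431 CPM in parental cells (log2 fold change 2.37, SE 0.35, adjusted p = 0.00153). IRF3, which turns on interferon genes, averaged 39.0 CPM in clones and 54.3 CPM in parental cells (log2 fold change -0.48, SE 0.08, adjusted p = 0.00265), lost without parental replicate 1 (adjusted p = 0.0591).

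Of 12 genes that restrain the pathway edgeR called 0 over the mean in KMS27 (3 at an unadjusted p under 0.05, with no share of all genes at that threshold given here). Of 17 genes of class I presentation that interferon also induces, 7 were higher and 2 lower (against 13.0% and 12.7% of all genes), among them TAP1 (1.01), a peptide transporter chain. Of 8 cell cycle genes 3 were higher and 0 lower (against the same shares), among them RRM2, a ribonucleotide reductase subunit, which averaged 1644 CPM in clones and 648 CPM in parental cells (log2 fold change 1.16, SE 0.14, adjusted p = 0.000567). The part of the cell cycle in the members' changes was not tested.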

How the data were processed

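RNA-seq gene counts were deposited by the authors as 1 table of raw counts for each line. The submitters' processing notes name the build hg38. For the aligner, counter, annotation and strand setting, the sources used here give nothing. Every listed gene reached 5 counts in 4 or more of its line's 8 libraries, which shows a filter. Totals ran from 5831289 to 52615971 counts per library, and no per-sample column was left unused (0 columns). Members, pathway lists and tests were chosen with earlier results of these data known. Libraries were grouped by the clone or parental name in the labels.

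Counts were scaled by TMM and filtered with filterByExpr, then tested with edgeR 4.0.16 (R 4.3.3, limma 3.58.1) by the quasi-likelihood test, with 1 mean per population in each line and 1 fit of all 16 libraries for the difference between lines. Adjusted p-values are Benjamini-Hochberg values over all genes tested, with a biological coefficient of variation of 11.9% (KMS12PE) and 14.3% (KMS27). Alternatives were DESeq2 1.42.0, its size factors in edgeR, no filter, each clone with its parental cells alone, a replicate block and leaving out each library. Leaving out both clone B5 libraries and reading the replicate term itself were chosen after seeing the data. Deviations of same-numbered libraries from their population means correlated over genes at 0.254 to 0.537 in all 6 pairs of KMS12PE populations. Its numbers were therefore taken as pairs in the replicate block, from the data and not from the labels. The main tests had no block, so KMS12PE values given without the block ignore this pairing.

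Genes named were STAT2, IRF1, IRF7, IRF9, ISG15, IFIT1, MX1, OAS1, IFI6, IFI27 and DDX58 whatever their result, members called over the mean, among clones or between lines with the smallest adjusted p, members called in opposite directions in 2 clones, and up to 3 genes of each pathway list. Others (ADAR, PML, DHX58, USP18, MX2, BST2, SP100, SAMHD1 in KMS12PE, IFIT5 in KMS27, DTX3L and IFITM1 in KMS12PE, and the markers of cell types) were chosen after their values were seen. Positions of neighbours came from GENCODE v29, in which 11397 of 12592 KMS12PE symbols and 12433 of 14560 KMS27 symbols were matched. Floors (3 counts) and 95% intervals cover counting error only. The count for the receptor and signalling list is not reported here. The scripts were tested on simulated data.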

Additional observations from a re-analysis of the deposited data

Results flagged for a closer look

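The mean response of the clones differed between the lines for 5 members, by a test of that difference in the fit of all 16 libraries (edgeR's quasi-likelihood test, KMS12PE response minus KMS27 response on the log2 scale). It was 1.54 for SAMD9L, 1.14 for SAMD9, 1.26 for PLSCR1, 4.93 for DTX3L and -0.61 for IFI16. The value of DTX3L rests on 2 KMS27 clones with 0 counts, so its size depends on the fit and is no bound. That of SAMD9L averages KMS12PE clones of unlike sign. SAMD9 was lost without KMS12PE parental replicate 3 (adjusted p = 0.0575), and IFI16 without KMS12PE parental replicate 1 (adjusted p = 0.0829).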

How the results depend on the processing

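No result changed direction past the threshold under any alternative run. With DESeq2, 1 member was lower over the mean of the KMS12PE clones (1% of all genes) and 2 were higher in clone D (1.66%). With the replicate block, KMS12PE had 2 higher and 4 lower over the mean (2.51% and 3.99% of all genes). Clone A then had 3 higher and 1 lower (1.85% and 1.8% of all genes). Clone C had 2 higher and 4 lower (3.68% and 3.4%), and clone D had 5 lower (9.16%). In KMS27 same-numbered libraries correlated at 0.0597 to 0.444, not all above 0.1. There the replicate block gave 5 higher and 10 lower over the mean (15.3% and 16.1% of all genes). It gave 23 members among the clones (21.0% of all genes). Fitting a clone with its parental cells alone gave 1 lower in KMS12PE clone C (0.901% of all genes). It gave 2 higher in clone D of that line (1.07%). In KMS27 it gave 0 higher and 4 lower in clone B5 (4.07% and 4.39% of all genes). In clone C5 it gave 16 higher (15.7% of all genes). Without both libraries of clone B5 there were 11 higher over the mean of the KMS27 clones (18.5% of all genes) and 14 lower in clone C1 (18.6% of all genes).

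Leaving out each library in turn, KMS12PE had 0 to 1 lower over the mean, 0 to 1 higher in clone A, 0 to 2 lower in clone C, 2 to 4 higher and 2 to 3 lower in clone D, and 7 to 10 among the clones. KMS27 had 0 to 5 higher and 4 to 12 lower over the mean, 0 to 1 higher and 4 to 12 lower in clone B5, 0 to 5 higher and 3 to 14 lower in clone C1, 3 to 14 higher and 0 to 7 lower in clone C5, and 5 to 27 among the clones. The shares of all genes called moved as well, between 2.45% and 20.9% in these KMS27 comparisons with parental cells and between 4.19% and 32.0% among the clones. Between the lines there were 4 to 5 above 0 and 0 to 2 below. Calls that held with any library left out were 3 of 10 lower over the mean in KMS27, 2 of 13 lower in clone B5, 2 of 9 lower in clone C1 and 3 of 10 higher in clone C5. How many of all called genes held likewise is not given here, so these counts show nothing particular to the members. In KMS12PE the shares of all genes called moved too, as given above beside its counts, so its ranges do not describe the members alone. For the comparison between the lines the shares are not given beside the range, so it does not describe the members alone either. Where a population was left with 1 library, it was assumed to vary like the others. KMS12PE parental libraries were the shallowest, which limits the precision of low members there, and 2 libraries per population limit every comparison.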
